A study of Homo sapiens with 8 samples.

Results

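Nonmuscle myosin II and the kinases that switch it on were followed across control and TRPM7 shRNA arrays of neuroblastoma cells. The genes were MYH9, MYH10 and MYH14 (heavy chains), MYL6, MYL9, MYL12A and MYL12B (light chains), and MYLK, ROCK1 and ROCK2 (kinases). Their probes were picked by gene symbol alone, which gave 17 of the 47322 probes on the array and 9 of the 10 genes. MYL12B has no probe under that symbol. The probe ILMN_1654016 carries MRLC2, which RefSeq lists as an older name of 2 genes, MYL12B and MYL11, and MYL11 is on the array separately under its other name, MYLPF. The MRLC2 probe was therefore counted for MYL12B, as the 18th probe and 10th gene, and is called MRLC2 throughout.

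Illumina HumanHT-12 v4 bead arrays were run on SH-SY5Y cells, which are neuroblastic, and on SH-EP2 cells, which are epithelial-like; both lines derive from the SK-N-SH neuroblastoma line. Each line had been stably transduced with a lentiviral vector and selected with puromycin. It carried either 1 TRPM7 shRNA or, as control, an shRNA that the paper calls nonfunctional. The controls thus shared the vector and the selection, and loss of TRPM7 cannot be told apart from other effects of the TRPM7 shRNA. There were 2 arrays in each of the 4 groups. The samples were prepared in duplicate and nothing states that these were separate cultures, so that p-values measure only the spread between these arrays, which may be technical.

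Nonmuscle myosin II is a hexamer of paired heavy chains, essential light chains and regulatory light chains. It pulls on actin filaments once its regulatory light chains are phosphorylated, by myosin light chain kinase under the control of calcium, or by the kinases ROCK1 and ROCK2, which also restrain the opposing myosin phosphatase. TRPM7 is a cation channel fused to a kinase, and that kinase phosphorylates the heavy chains of myosin II, a motor that takes part in adhesion and migration. The arrays measured RNA and not phosphorylation.

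The promoter windows that RefSeq lists for MYH9, MYH10 and MYLK are shown because the results below turn on these genes. RefSeq (GRCh38.p14) gave a promoter for 9 of the 10 genes, and MYL9 was not among them. The 250 bases before the annotated start are printed 5′ to 3′ on the strand of the gene, which is the minus strand for all 3, at chr22:36387968-36388217 (MYH9), chr17:8630726-8630975 (MYH10) and chr3:123620549-123620798 (MYLK). Capitals mark motifs found on either strand. These were CCAAT, or CCAAT box, which is bound by the factor NF-Y, and GGGCGG, or GC box, to which factors of the Sp family bind. The others were the TATA box, searched with the letters TATAAA, and the CArG box, which serum response factor binds.
MYH9: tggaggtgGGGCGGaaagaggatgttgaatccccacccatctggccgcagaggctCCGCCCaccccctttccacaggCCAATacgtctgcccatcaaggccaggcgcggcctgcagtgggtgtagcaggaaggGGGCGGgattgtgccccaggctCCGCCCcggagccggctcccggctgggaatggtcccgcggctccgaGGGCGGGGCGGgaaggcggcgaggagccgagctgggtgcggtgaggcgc
MYH10: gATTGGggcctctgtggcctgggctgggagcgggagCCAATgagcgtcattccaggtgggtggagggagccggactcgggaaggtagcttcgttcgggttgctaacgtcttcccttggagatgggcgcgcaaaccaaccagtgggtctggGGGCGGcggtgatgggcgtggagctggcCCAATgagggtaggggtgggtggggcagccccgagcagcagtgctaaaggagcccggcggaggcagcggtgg
MYLK: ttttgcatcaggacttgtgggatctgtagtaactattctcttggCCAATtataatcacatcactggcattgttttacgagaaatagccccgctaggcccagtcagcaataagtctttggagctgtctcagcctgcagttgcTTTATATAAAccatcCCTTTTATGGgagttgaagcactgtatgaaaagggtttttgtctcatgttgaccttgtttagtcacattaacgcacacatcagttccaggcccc
The MYH9 promoter held 6 GC boxes, of which 2 overlap at 49 and 44 bases before the start, and 1 CCAAT box. That of MYH10 held 3 CCAAT boxes and 1 GC box. That of MYLK held a CArG box at 94 bases before the start and 1 CCAAT box. Its 2 TATAAA matches, at 109 and 105, overlap and are read on opposite strands. Its GC content was 43.2%, against 71.6% for MYH9 and 67.2% for MYH10. These traits were not particular to MYLK. Of the 2 ROCK2 starts, 1 had a CArG box at 73, a TATAAA match at 31 and a GC content of 44.8%. The other had neither motif and a GC content of 77.6%. Among 35116 promoter windows of the same length, 32% held a CCAAT box, 42.6% a GC box, 10.7% a TATA box and 1.16% a CArG box. Such matches describe letters and not binding. Each of the 3 genes had 1 start in this set, and whether the RNA that the probes read begins there was not tested. The MYLK window may therefore not be the promoter of the kinase transcript.

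Per array, the median bead signal was 104.7 to 119.9, and 19331 to 20904 probes counted as detected (detection p under 0.05). None of the 8 arrays detected the TRPM7 probe (detection p from 0.0753 to 0.201), so that these arrays cannot check the knockdown. Line markers largely followed the labels, as 11 of 12 noradrenergic genes were lower in SH-EP2 control cells (limma, adjusted p under 0.05). Of 12 mesenchymal genes, 11 were higher and 1 was lower there. Over all probes, 26.2% were called between control arrays, and 60.1% of those detected on all 8 arrays. With TRPM7 shRNA, 3 of 12 noradrenergic genes (median -0.257) and 3 of 12 mesenchymal genes (median 0.041) were lower in SH-SY5Y cells. In SH-EP2 cells, 1 gene was higher and 2 were lower in each list (medians 0.089 and -0.071). Of all probes, 2.11% were called with TRPM7 shRNA in SH-SY5Y and 3.02% in SH-EP2 cells. The part of the marker shifts in the results below was not tested. Of 7 striated or smooth muscle myosin genes, 5 were not detected on any array, and MYL1 and MYL2 were each detected on 1 SH-SY5Y array. Outside these 7, MYH3 was detected on 2, MYL7 on 3, MYL10 on 4 and MYH15 on 5 of the 8 arrays. In these bulk samples, fewer cells of a kind and less RNA per cell cannot be told apart. Values below are log2 signals after background correction and quantile normalization, a gene is given by its brightest probe unless another is named, and levels of different probes are not compared.

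Few of the myosin II genes were called with TRPM7 shRNA. A gene that was not called may still have changed, since each group had only 2 arrays. In SH-EP2 cells, MYH9 fell by 38.3% and MRLC2 fell by 25.6%. In SH-SY5Y cells, MYH10 was 29.5% higher. By probe, 2 of the 18 were called in SH-SY5Y cells, both higher, and 3 in SH-EP2 cells, all lower (limma, adjusted p under 0.05). The shares of 11.1% and 16.7% stand beside 2.11% and 3.02% of all probes on the array, of which 0.807% were higher in SH-SY5Y and 1.54% lower in SH-EP2 cells. Among probes detected on all 8 arrays, 5.63% and 7.79% were called, beside 16.7% and 25% of the 12 member probes so detected.

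MYH9 encodes the heavy chain of myosin IIA, the isoform that dominates in most migrating and adherent cells. Its signal in SH-SY5Y cells was 9.70 and 9.62 on the control arrays and 9.65 and 9.53 on the TRPM7 shRNA arrays. In SH-EP2 cells it was 12.42 and 12.44 on the control arrays and 11.76 and 11.70 on the TRPM7 shRNA arrays. Both SH-EP2 shRNA arrays lay below both SH-EP2 controls, whereas the SH-SY5Y groups overlapped. The difference in SH-EP2 cells was -0.70 ± 0.08 (SE; limma, adjusted p = 2.09e-05). In SH-SY5Y cells it was -0.07 ± 0.08 (adjusted p = 0.842), with a 95% interval of -0.24 to 0.10. The difference between these effects was -0.63 ± 0.11 (adjusted p = 0.00388), where 2 of the 18 probes were called, against 1.40% of all probes and 3.45% of those detected on all 8 arrays.

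The second MYH9 probe, ILMN_2087702, gave 11.92 and 11.98 on SH-EP2 control arrays and 11.24 and 11.38 on TRPM7 shRNA arrays. These groups did not overlap, and the difference was -0.65 ± 0.11 (adjusted p = 0.0014). In SH-SY5Y cells this probe differed by -0.06 (adjusted p = 0.917), and its difference between the lines of -0.59 did not pass the test (adjusted p = 0.0733). For the brightest probe in SH-EP2 cells, adjusted p ranged from 8.01e-09 to 0.185 over 19 alternatives and missed the threshold with eBayes without an intensity trend (0.185) and with a per-probe test without eBayes (0.0628). Its difference between the lines also missed it under these settings.

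MYH10 encodes the heavy chain of myosin IIB, which is abundant in neurons. On SH-SY5Y control arrays its signal was 11.30 and 11.41, and on TRPM7 shRNA arrays 11.79 and 11.67, so that both shRNA arrays were higher. The difference was 0.37 ± 0.08 (adjusted p = 0.0201). In SH-EP2 cells, MYH10 was at 10.19 and 10.36 on control arrays and 10.19 and 10.21 on TRPM7 shRNA arrays. These groups overlapped, with a difference of -0.075 (adjusted p = 0.818) and a 95% interval of -0.25 to 0.10. Whether the lines differ in this effect was not settled (-0.45 ± 0.12, adjusted p = 0.0759), since 4 of 17 alternatives passed the threshold in a range of 0.0333 to 0.628. The rise in SH-SY5Y cells was not called without control replicate 1 (adjusted p = 0.126) or without TRPM7 shRNA replicate 1 (adjusted p = 0.2). It was also lost with eBayes without the trend, with the per-probe test and with a replicate block, within a range of 0.00587 to 0.533 over 19 alternatives.

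The third heavy chain, MYH14 of myosin IIC, was not detected. Its 2 probes had signals of 93.2 to 118.5 before normalization and detection p of 0.0701 or more, and no fold is given.

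**Figure D1:**
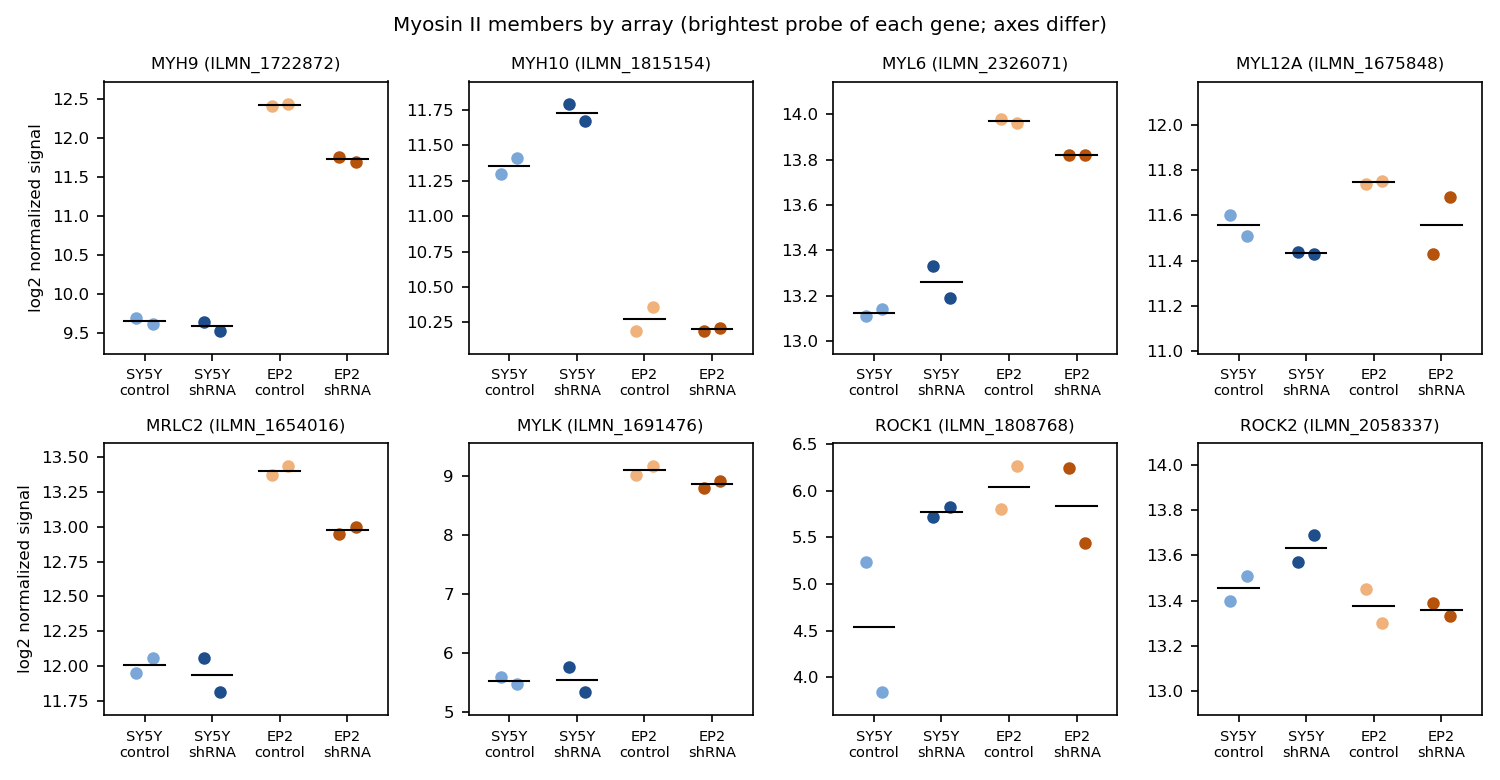
Log2 normalized signal (y axis, a range of its own in each panel) of the brightest probe of the 8 detected genes in the 4 groups; points are the 2 arrays of a group, in the order of their replicate numbers, and lines their means. MYH9 and MRLC2 were lower on both SH-EP2 TRPM7 shRNA arrays than on both controls, MYH10 was higher on both SH-SY5Y TRPM7 shRNA arrays, and 1 SH-SY5Y control array was at 3.84 for ROCK1.

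Among the light chains, MYL6 encodes the essential light chain that stabilizes the neck of the heavy chain. Its brightest probe was at 13.11 and 13.14 on SH-SY5Y control arrays and 13.33 and 13.19 on TRPM7 shRNA arrays, a difference of 0.135 (adjusted p = 0.391). In SH-EP2 cells it was at 13.98 and 13.96 on control arrays and 13.82 and 13.82 with TRPM7 shRNA, a difference of -0.15 (adjusted p = 0.253). Neither pair of groups overlapped, but neither difference passed the test. The second probe, ILMN_1809013, was at 12.88 and 12.82 on SH-SY5Y control arrays and 13.30 and 13.20 on TRPM7 shRNA arrays. This rise of 0.40 ± 0.07 was called (adjusted p = 0.0019), the difference of -0.23 in SH-EP2 cells was not (adjusted p = 0.0912), and the difference between the lines was (-0.62 ± 0.10, adjusted p = 0.000966). The probes of MYL6 thus had the same signs in each line and gave different calls.

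The regulatory light chains carry the phosphorylation sites. MRLC2 was at 13.37 and 13.44 on SH-EP2 control arrays and at 12.95 and 13.00 on TRPM7 shRNA arrays, so that both shRNA arrays were lower. The difference was -0.43 ± 0.08 (adjusted p = 0.00223). In SH-SY5Y cells, 11.95 and 12.06 on control arrays overlapped with 12.06 and 11.81 on TRPM7 shRNA arrays (-0.07, adjusted p = 0.832), and the difference between the lines was not called (-0.36 ± 0.11, adjusted p = 0.144). The SH-EP2 call was lost without control replicate 2 (adjusted p = 0.0691) and without TRPM7 shRNA replicate 1 (adjusted p = 0.0572), and with eBayes without the trend and the per-probe test, within a range of 9.08e-07 to 0.449 over 18 alternatives.

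MYL12A, a close paralog of MYL12B, was at 11.60 and 11.51 on SH-SY5Y control arrays and 11.44 and 11.43 on TRPM7 shRNA arrays. In SH-EP2 cells it was at 11.74 and 11.75 on control arrays and 11.43 and 11.68 on TRPM7 shRNA arrays. The shRNA arrays were the lower ones in both lines, but the differences of -0.12 (adjusted p = 0.649) and -0.19 (adjusted p = 0.302) were not called. Probe sequences were not used here, so that cross-hybridization between MYL12A and MYL12B was not tested. MYL9, the regulatory light chain typical of smooth muscle and of contractile stromal cells, was not detected by either of its 2 probes (detection p of 0.123 or more).

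None of the 3 kinases was called after TRPM7 shRNA. MYLK, the calcium-dependent light chain kinase, was at 5.60 and 5.48 on SH-SY5Y control arrays and at 5.76 and 5.34 on TRPM7 shRNA arrays (0.01, adjusted p = 0.99). In SH-EP2 cells its values of 9.01 and 9.17 on control arrays and 8.80 and 8.91 on TRPM7 shRNA arrays differed by -0.23 (adjusted p = 0.641), with a 95% interval of -0.57 to 0.11. These SH-EP2 groups did not overlap, and the SH-SY5Y groups did.

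ROCK1 showed the largest fitted difference of any detected member and also the widest spread. On SH-SY5Y control arrays it was at 5.24 and 3.84, and on TRPM7 shRNA arrays at 5.72 and 5.83. Both shRNA arrays were higher, and the low control array was only just detected (detection p of 0.0143). The difference of 1.24 ± 0.35 did not pass the test (adjusted p = 0.0849). It did without SH-SY5Y control replicate 1, at 1.93 (adjusted p = 0.00346), and was 0.54 without control replicate 2 (adjusted p = 0.639), within a range of 0.00346 to 0.941 over 20 alternatives. The second ROCK1 probe, ILMN_1739583, overlapped between the same groups, at 4.86 and 4.31 on control arrays and 4.80 and 4.64 on TRPM7 shRNA arrays (0.14, adjusted p = 0.941). In SH-EP2 cells, ROCK1 was at 5.81 and 6.27 on control arrays and 6.24 and 5.44 on TRPM7 shRNA arrays (-0.20, adjusted p = 0.902), and these overlapped. RefSeq also lists ROCK1P1, a pseudogene related to ROCK1, and whether the probes distinguish it was not tested.

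ROCK2, the paralog of ROCK1, was at 13.40 and 13.51 on SH-SY5Y control arrays and 13.57 and 13.69 on TRPM7 shRNA arrays. Both shRNA arrays were higher, by 0.18 ± 0.07, which was not called (adjusted p = 0.266). In SH-EP2 cells, 13.45 and 13.30 on control arrays overlapped with 13.39 and 13.33 on TRPM7 shRNA arrays, and the 95% interval of the difference was -0.16 to 0.12. The second ROCK2 probe, ILMN_1659099, had group means of 6.72 to 7.07 and overlapped between control and TRPM7 shRNA arrays in both lines. Whether the ROCK2 probes read the same RNA was not tested.

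In SH-EP2 cells the fitted difference was below 0 for 12 of the 12 member probes detected on all 8 arrays, from -0.70 to -0.02, and 47.2% of all probes so detected were below 0. In SH-SY5Y cells it was below 0 for 4 of these 12 probes, against 48.2%. Only the called probes named above passed the test, probes of 1 gene are not independent, and the sign turned under some alternatives for MYH10, ROCK1 and ROCK2 in SH-EP2 cells. By gene, the median difference was -0.029 in SH-SY5Y and -0.172 in SH-EP2 cells, against 0.005 and 0.006 over all probes. Without the undetected MYH14 and MYL9 it was 0.073 and -0.197, against 0.011 and 0.018 over all probes detected on all 8 arrays.

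**Figure D2:**
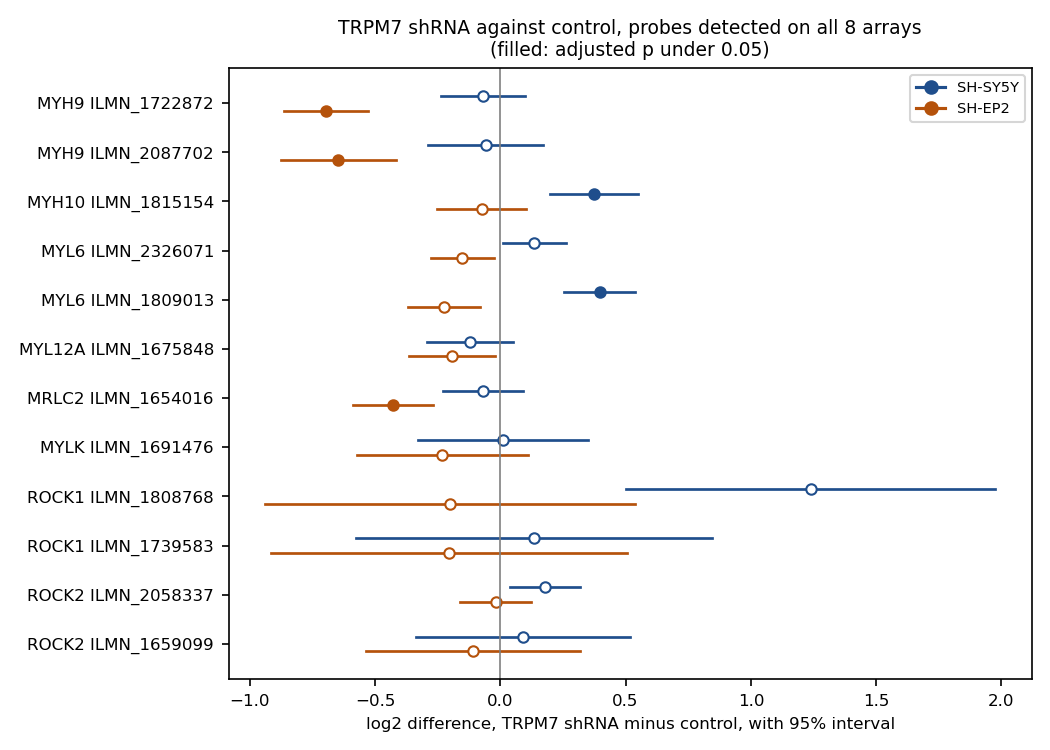
Log2 difference, TRPM7 shRNA minus control (x axis), with its 95% interval, for the 12 member probes detected on all 8 arrays in SH-SY5Y (blue) and SH-EP2 cells (orange); filled points had an adjusted p under 0.05. In SH-EP2 cells all 12 points lie below 0, and the MYH9 probes at -0.70 and -0.65 and the MRLC2 probe at -0.43 are filled; in SH-SY5Y cells MYH10 at 0.37 and 1 MYL6 probe at 0.40 are filled.

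The cell lines differed far more from each other than the shRNA groups did. Between control arrays, 9 of the 18 probes were called, 8 of them higher in SH-EP2 cells (limma, adjusted p under 0.05). This share of 50% stands beside 26.2% of all probes (12.2% higher). Of probes detected on all 8 arrays, 60.1% were called, and 8 of the 12 member probes so detected (66.7%). Between TRPM7 shRNA arrays it was again 9 of the 18, beside 26.1% of all probes. By gene, MYH9, MYL6, MRLC2, MYLK and ROCK1 were higher and MYH10 was lower in SH-EP2 control cells. MYL12A and ROCK2 were not called, and MYH14 and MYL9 were not detected in either line.

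The heavy chains differed in opposite directions. MYH9 was 6.82-fold higher in SH-EP2 control cells (12.43 ± 0.013 against 9.66 ± 0.059, SD, n = 2; adjusted p = 3.93e-16 by limma), and its second probe 6.08-fold. MYH10 was 2.11-fold lower (10.27 ± 0.12 against 11.35 ± 0.072, SD, n = 2; adjusted p = 2.35e-09 by limma). Between the TRPM7 shRNA arrays these folds were 4.41 for MYH9 and 2.88 for MYH10. The order of the groups for MYH9 was SH-EP2 control, SH-EP2 TRPM7 shRNA, then both SH-SY5Y groups, which did not differ beyond their spread. For MYH10 it was SH-SY5Y TRPM7 shRNA, SH-SY5Y control, then both SH-EP2 groups, which likewise did not.

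MYLK had the largest difference between the lines, and was 11.7-fold higher in SH-EP2 control cells (9.09 ± 0.11 against 5.54 ± 0.086, SD, n = 2; adjusted p = 5.95e-13 by limma). The second probe, ILMN_2364768, was 12.7-fold higher (adjusted p = 2.89e-09), and 1 of the 2 SH-SY5Y control arrays did not detect it. The third, ILMN_1663427, was detected on 1 of the 8 arrays, an SH-SY5Y TRPM7 shRNA array. On TRPM7 shRNA arrays the brightest MYLK probe was 9.90-fold higher in SH-EP2 cells. Without background correction its difference between control arrays was 2.04 on the log2 scale in place of 3.55.

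Of the light chains, MRLC2 was 2.63-fold higher in SH-EP2 control cells (adjusted p = 1.08e-11) and MYL6 1.79-fold (adjusted p = 6.18e-10). The second MYL6 probe was 2.02-fold higher. MYL12A differed by 0.19 (adjusted p = 0.0987), with a 95% interval of 0.02 to 0.36. The regulatory light chains MRLC2 and MYL12A thus gave different calls between the lines, and a test of that difference was not run.

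ROCK1 and ROCK2 gave no clear difference between the lines. ROCK1 was 2.83-fold higher in SH-EP2 control cells by its brightest probe (adjusted p = 0.00232), but its second probe lay the other way (-0.34, adjusted p = 0.57). Without the low SH-SY5Y control array, replicate 2, the difference of the brightest probe was 0.80 and not called (adjusted p = 0.0844), and between TRPM7 shRNA arrays it was 0.06 (adjusted p = 0.941), within a range of 5.01e-05 to 0.941 over 19 alternatives. ROCK2 differed by -0.08 between control arrays (95% interval -0.22 to 0.065, adjusted p = 0.511) and by -0.27 between TRPM7 shRNA arrays (adjusted p = 0.00374). Its second probe, ILMN_1659099, lay the other way in both comparisons and was called in neither. It differed by 0.35 between control arrays (adjusted p = 0.258) and by 0.15 between TRPM7 shRNA arrays (adjusted p = 0.699).

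**Figure D3:**
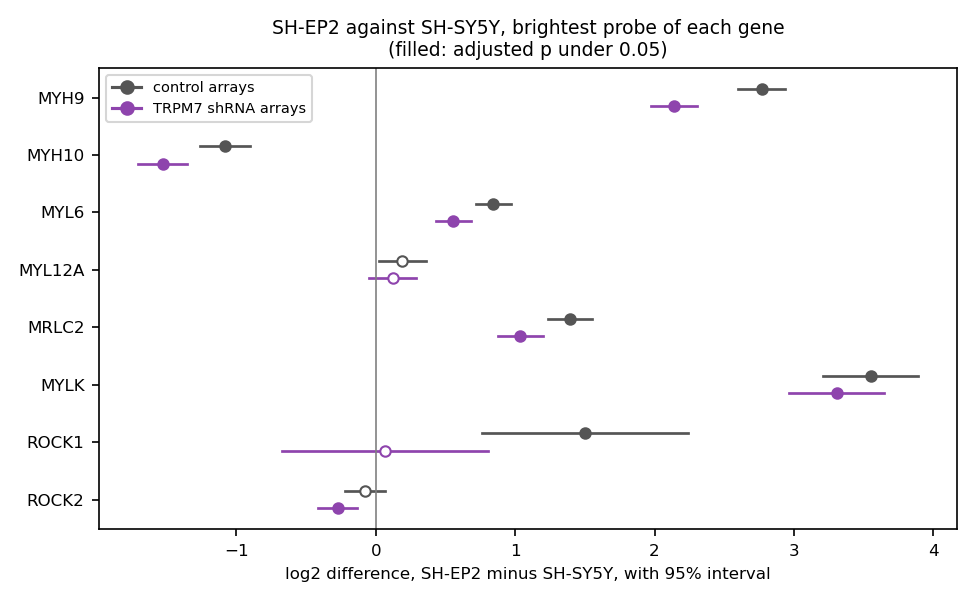
Log2 difference, SH-EP2 minus SH-SY5Y (x axis), with its 95% interval, for the brightest probe of the 8 detected genes between control arrays (grey) and between TRPM7 shRNA arrays (purple); filled points had an adjusted p under 0.05. MYLK (3.55) and MYH9 (2.77) lie furthest to the right and MYH10 (-1.08) to the left on control arrays, and ROCK1 lies to the right on control arrays but at 0.06 on TRPM7 shRNA arrays.

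Many genes shared the pattern of these members over the 8 arrays, which the difference between the cell lines dominates. The probes most like MYH9 by Pearson's r of log2 signals were those of MGC4677 (r = 0.9986), SH3GLB1 (0.9983) and COL1A2 (0.9981), and 164 of 14284 probes had an r over 0.99. The probes most like MYH10 were those of CCDC14 (0.9974), SNX26 (0.9969) and C5orf37 (0.9957), with 36 of 14285 over 0.99. For MYLK they were CYR61 (0.9991), MGC4294 (0.9989) and SELM (0.9989), with 535 of 22454 over 0.99.

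The genes around myosin II were read from lists chosen by role. Beside the counts of these lists, limma called 2.11% of all probes in SH-SY5Y and 3.02% in SH-EP2 cells with TRPM7 shRNA. Of probes detected on all 8 arrays, it called 5.63% and 7.79%. Of 8 genes of myosin phosphatase and its inhibitors and of 12 other light chain kinases (the DAPK, MRCK, PAK and citron kinases and relatives of MYLK among them), limma called 0 in either line. At an unadjusted p under 0.05, these were 2 phosphatase genes and 1 kinase in SH-SY5Y cells and 0 and 3 in SH-EP2 cells. The median differences in SH-SY5Y and SH-EP2 cells were -0.133 and -0.124 for the phosphatase genes and 0.001 and -0.223 for the kinases.

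Of 9 partners of myosin II, 2 were called in SH-SY5Y and 2 in SH-EP2 cells, beside 2.11% and 3.02% of all probes. The median differences were 0.006 and 0.046. CALD1, or caldesmon, which binds actin and myosin and inhibits the motor, fell by 60.2% in SH-EP2 cells (-1.33 ± 0.08, adjusted p = 7.5e-09) and differed by -0.09 in SH-SY5Y cells (adjusted p = 0.778), and these effects differed (-1.24, adjusted p = 3.4e-06). S100A4, which binds the tail of the MYH9 heavy chain, fell by 35.3% in SH-SY5Y cells (adjusted p = 0.000235) and differed by 0.28 in SH-EP2 cells (adjusted p = 0.111), and these effects differed too (0.91, adjusted p = 0.000287). SVIL, or supervillin, which links myosin II to membranes, rose in SH-EP2 (0.83, adjusted p = 0.00016) and in SH-SY5Y cells (0.46, adjusted p = 0.0383). The mean over the SVIL probes gave 0.465 in SH-EP2 cells and was not called (adjusted p = 0.411, in a range of 1.23e-07 to 0.411), and the SH-SY5Y call was lost in 12 of 19 alternatives, 7 of them with 1 array left out.

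Of 7 other substrates of ROCK1 and ROCK2, LIMK2, which phosphorylates cofilin, rose in SH-EP2 cells (1.01 ± 0.23, adjusted p = 0.0155), and RDX, or radixin, rose in SH-SY5Y cells (0.46 ± 0.12, adjusted p = 0.0438). The mean over the LIMK2 probes gave 0.696 and was not called (adjusted p = 0.433, in a range of 0.00381 to 0.433), and without background correction the value was 0.322. The medians were 0.046 in SH-SY5Y and 0.088 in SH-EP2 cells. Of 20 other myosin II chains, 12 were not detected on any array, 0 were called in SH-SY5Y (1 at an unadjusted p under 0.05) and 3 in SH-EP2 cells. MYL6B, a light chain related to MYL6, was 23.4% higher in SH-EP2 cells (adjusted p = 0.038). With the background correction used here, MYH3, an embryonic heavy chain, was at least 2.48-fold lower in SH-EP2 cells (adjusted p = 0.0371 by limma). Of the 8 arrays, 2 SH-EP2 arrays detected it. MYL7, an atrial light chain detected on 3 SH-EP2 arrays, was also lower there (4.49 for MYH3 and 5.70 for MYL7 in control cells against 2.57 and 3.27; adjusted p = 0.0126 for MYL7). Without background correction these differences were -0.263 for MYH3 and -0.452 for MYL7. The RDX call was lost in 10 of 19 alternatives. Of 18 alternatives, MYL6B was lost in 10, MYH3 in 9, LIMK2 in 6 and MYL7 in 5. With 1 array left out, SVIL and RDX in SH-SY5Y cells were lost in 7 and 5 cases. LIMK2, MYL6B, MYH3 and MYL7 in SH-EP2 cells were lost in 3, 4, 5 and 3. The calls of CALD1, S100A4 and of SVIL in SH-EP2 cells were not lost with 1 array left out. With eBayes without the trend, these 3 were lost too (adjusted p of 0.0507, 0.275 and 0.174), and with the per-probe test all but CALD1.

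**Figure D4:**
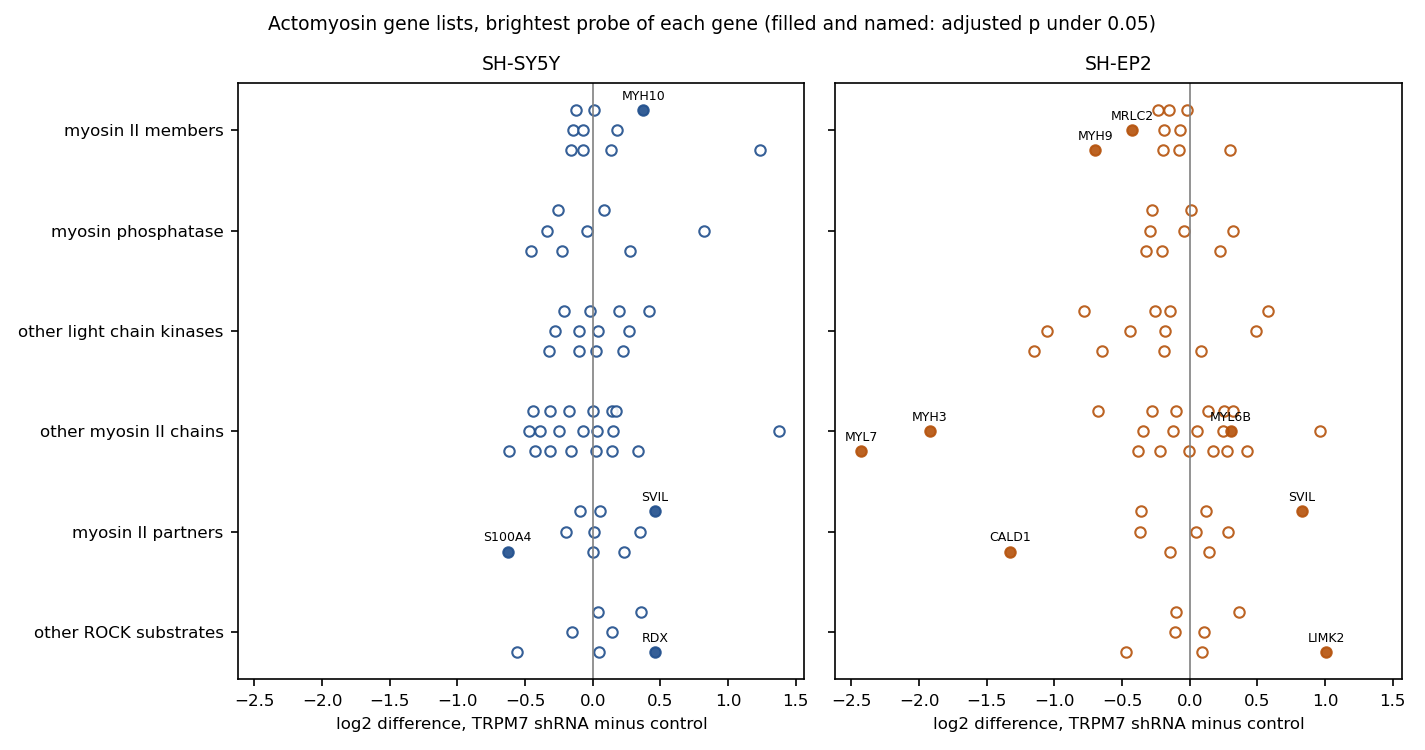
Log2 difference, TRPM7 shRNA minus control (x axis), of the brightest probe of each gene in 6 lists in SH-SY5Y (left) and SH-EP2 cells (right), undetected genes included; filled and named points had an adjusted p under 0.05, and the vertical offset within a list only separates points. CALD1 at -1.33 and SVIL at 0.83 stand out in SH-EP2 cells, S100A4 at -0.63 in SH-SY5Y cells, and MYH3 and MYL7 rest on probes that few arrays detected.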

How the data were processed

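Groups follow the labels (cell line and shRNA). The authors extracted bead signals in GenomeStudio 2011.1, and the deposited table holds these intensities, which are linear and not normalized, with a deposited detection p-value per probe, for 47322 probes on 8 arrays. Chip positions are not given in the sources used here. Per the paper, the authors normalized by Robust-Multi-Array, and the test they used is not named. Background was removed here by the model of RMA, and the log2 values were taken after quantile normalization of all 8 arrays together. A linear model with a mean for each of the 4 groups was fitted in limma 3.58.1 (R 4.3.3) and moderated by eBayes with the trend option. All tests were two-sided, p-values were adjusted by Benjamini-Hochberg across the whole array, and 0.05 was the threshold. The procedure was tested on simulated data, with changes larger than the shRNA differences called for the members. Recovery of changes as small as those was not tested. With 2 arrays per group their number limits the precision, and fold changes of dim probes depend on the background model.

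The members and lists were chosen with earlier results of these data known, and 1 list and 1 gene of the partner list are not reported here. Members were named with all their probes, and genes of the other lists where the brightest probe passed the threshold in a shRNA comparison. A further 3 genes were named for MYH9, MYH10 and MYLK by the highest Pearson's r, among probes detected on all 8 arrays (at least 2 for MYLK). A probe undetected on both arrays of a group was given a bound only: the mean of the brighter group against, per array of the dimmer group, the higher of its own value and the lowest signal among detected probes. Alternatives changed the background step (neqc with offset 16, normexp with offset 50, none), the scaling (by the median), the probes (those that 2 or more arrays detected), the moderation (eBayes without the trend, or a per-probe test with equal variances) and the samples (each line alone). Further ones were a replicate block, the mean over probes, TRPM7 shRNA arrays for the lines, and each array left out. A block with crossed numbers in SH-SY5Y and the second brightest probe were chosen after seeing the data. The replicate numbers were checked as pairs on 14577 probes: deviations of same-numbered arrays correlated at -0.111 in SH-SY5Y and -0.00447 in SH-EP2 cells.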

Additional observations from a re-analysis of the deposited data

Results flagged for a closer look

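MYH9 stood out because the effect of TRPM7 shRNA differed between the cell lines in a test of the difference itself. The SH-EP2 effect (-0.70) minus the SH-SY5Y effect (-0.068) was -0.63 ± 0.11 on the log2 scale (limma, adjusted p = 0.00388). Both SH-EP2 TRPM7 shRNA arrays were below both SH-EP2 control arrays, and the SH-SY5Y groups overlapped. The second MYH9 probe gave -0.59 and missed the threshold (adjusted p = 0.0733). The cause was not tested.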

How the results depend on the processing

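With eBayes without the intensity trend, and with the per-probe test, 0 members were called in SH-SY5Y, in SH-EP2 and in the difference between the lines. At an unadjusted p under 0.05 these were 1, 2 and 1 without the trend and 1, 3 and 3 with the per-probe test. The cause was not tested. In SH-SY5Y, where 1 gene was called, the replicate block within each line gave 0 (3 at an unadjusted p under 0.05, MYH10 at an adjusted p of 0.0503), and changed no other call of a member. Outside the members it lost SVIL and RDX in SH-SY5Y and MYH3 and MYL6B in SH-EP2. The block with crossed numbers gave 2, and so did averaging a gene's probes and the second brightest probe. The replicate numbers share only a number. For the difference between the lines, where 1 was called, normexp, no background correction, median scaling, probes detected on at least 2 arrays and the mean over probes each gave 2. Leaving out 1 array gave 0 to 1 calls in SH-SY5Y, 1 to 2 in SH-EP2, 1 to 3 for the difference between the lines and 5 to 6 of the 6 between the lines. SH-SY5Y gave 0 without TRPM7 shRNA replicate 1 (4 at an unadjusted p under 0.05), and without control replicate 1 it lost MYH10 and gained ROCK1. The difference between the lines gave 2 without SH-SY5Y control replicate 1 and 3 without SH-SY5Y TRPM7 shRNA replicate 2. Over all probes, the alternatives gave 50 to 1392 calls in SH-SY5Y (999), 100 to 2587 in SH-EP2 (1429), 15 to 1248 for the difference (662) and 8774 to 12803 between the lines (12400).

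Of 16 changes of sign, 15 were of values past the threshold under neither setting. Median scaling turned MYH9 (0.075) and MRLC2 (0.054) in SH-SY5Y and ROCK2 in SH-EP2 (0.051). Between the lines, ROCK2 turned with the block (0.037), the mean over probes (0.139) and the second probe (0.354), and ROCK1, called with its brightest probe, with the second (-0.341). With 1 array left out, values in SH-EP2 ranged from -0.094 to 0.06 for ROCK2, from -0.155 to 0.007 for MYH10 and from -0.606 to 0.203 for ROCK1. In SH-SY5Y they ranged from -0.2 to 0.222 for MYLK and from -0.191 to 0.056 for MRLC2, and for MYL12A in the difference between the lines from -0.195 to 0.05. MYH14, MYL9 and TRPM7 were at background signal, so that no change of theirs could be detected.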

Other observations

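Within each array, the log2 signal of the brightest MYH9 probe minus that of the MYH10 probe was 2.22 and 2.08 on SH-EP2 control arrays and 1.58 and 1.48 on SH-EP2 TRPM7 shRNA arrays. It was -1.60 and -1.79 on SH-SY5Y control arrays and -2.14 and -2.13 on SH-SY5Y TRPM7 shRNA arrays. The TRPM7 shRNA arrays were the lower ones in both lines, with a change of the mean of -0.62 (SH-EP2) and -0.44 (SH-SY5Y). These changes restate the shRNA differences of MYH9 and MYH10 given above and are no further result. Of these heavy chains, only MYH9 was called in SH-EP2 cells and only MYH10 in SH-SY5Y cells. The size of MYH9 minus MYH10 depends on the probes, so that only its changes between arrays can be read, and these were not tested.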
